A study of Mus musculus with 7 samples.

Results

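The subject is the genes for receptors of GABA and glutamate, the main inhibitory and excitatory transmitters of the brain, in mouse hypothalamus with and without Creb in Pomc cells. Members were taken by gene symbol from the annotation of the mouse430_2 array: subunits of GABA-A, rho and GABA-B receptors, of AMPA, kainate, delta and NMDA receptors, and metabotropic glutamate receptors. This gave 38 of the 18193 genes tested, with 80 probe sets between them. There were 16 GABA receptor genes, 16 ionotropic and 6 metabotropic glutamate receptor genes. Symbols that the rule covers and that no probe set carried alone, such as those of further alpha and beta subunits, were not analysed here.

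The arrays came from whole hypothalami dissected at 3 months of age. The control group of 4 arrays carries the label wild type, and the other group of 3 arrays the label Creb-PomcCre-/-, mice in which a Cre recombinase made in Pomc cells deletes Creb. The labels number the samples as biological replicates, do not say whether RNA was pooled over mice, and do not say whether the wild-type mice carry the Cre or the altered Creb allele. Pomc neurons are a small population of the arcuate nucleus, and most receptor RNA in the tissue comes from other cells. In such bulk tissue, fewer cells of a type and less RNA per cell cannot be told apart. Values are log2 expression as deposited, and every difference below is knockout minus wild type on that scale, with the standard error (SE) of limma. Because probes differ in brightness, levels are compared between arrays for 1 gene and never between genes.

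GABA-A receptors are chloride channels built from subunits of several families, and the choice of alpha, gamma or delta subunit sets where the channel sits and how it responds. GABA-B receptors act through G proteins. AMPA receptors carry fast excitation, NMDA receptors admit calcium when glutamate and depolarisation coincide, kainate receptors act on both sides of the synapse, and metabotropic receptors couple glutamate to G proteins. In the hypothalamus, most neurons of the circuits that set appetite are themselves GABAergic or glutamatergic, and Pomc neurons receive both kinds of input.

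CREB binds the cyclic AMP response element, so the start sites of the members were read for it. RefSeq promoter windows of GRCm38.p6, from 250 bases before to 50 bases after a start site, were found for 28 of the 38 members, 35 windows in all. The full element TGACGTCA, which reads the same on both strands, occurred in 0 of the 35 windows and in 2.50% of the 18006 windows of genes on the array. The shorter element TGACG, or CGTCA on the other strand, which is also part of the full element, occurred in 4 windows (11.4%) against 26.4% of windows of genes on the array. The 4 windows with a short element are shown from 120 bases before to 5 bases after the start site, with the short element in capitals. Next to them stand the windows of Gria2 and Gria4, the AMPA receptor genes with a window, which hold none.
Gabrr1, chr4:33132436-33132560, plus strand: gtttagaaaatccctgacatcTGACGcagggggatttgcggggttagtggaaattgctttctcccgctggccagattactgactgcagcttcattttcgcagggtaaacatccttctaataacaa
Gabrb2, chr11:42420320-42420444, plus strand: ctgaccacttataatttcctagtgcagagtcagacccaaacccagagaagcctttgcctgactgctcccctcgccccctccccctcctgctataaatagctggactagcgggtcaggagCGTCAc
Grik2, chr10:49788750-49788874, minus strand: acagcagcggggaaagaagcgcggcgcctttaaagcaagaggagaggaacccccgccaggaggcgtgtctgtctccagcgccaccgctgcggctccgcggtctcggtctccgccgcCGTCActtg
Grm8, chr6:28134417-28134541, minus strand: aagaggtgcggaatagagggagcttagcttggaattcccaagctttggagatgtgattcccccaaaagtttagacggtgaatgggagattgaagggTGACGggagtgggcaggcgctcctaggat
Gria2, chr3:80802831-80802955, minus strand: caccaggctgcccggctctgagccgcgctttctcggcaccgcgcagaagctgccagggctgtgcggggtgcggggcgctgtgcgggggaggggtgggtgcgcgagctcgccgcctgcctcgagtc
Gria4, chr9:4796230-4796354, minus strand: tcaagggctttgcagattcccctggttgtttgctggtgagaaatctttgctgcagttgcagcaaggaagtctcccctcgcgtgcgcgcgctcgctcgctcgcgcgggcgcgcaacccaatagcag
The short elements lay at -99 in Gabrr1, -1 in Gabrb2, -4 in Grik2 and -24 in Grm8, counted from the start site to the first base of the match. These windows show which letters are present and nothing about binding. Of the genes with a short element, Gabrr1 and Grm8 were higher in the knockout by 0.22 and 0.07, and Gabrb2 and Grik2 were lower, at -0.21 and -0.10.

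Seen together, most receptor genes were slightly lower in the knockout, and 0 of the 38 passed the threshold after Benjamini-Hochberg adjustment over all genes (limma, lowest adjusted p = 0.203). Over all genes, 0.011% passed. Before adjustment, p lay under 0.05 for 7 members, each of them lower, against 6.12% of all genes lower and 5.6% higher. Of the 38 members, 28 were lower and 10 higher, with a median difference of -0.09 beside 0.0036 over all genes, of which 48.5% were lower. All 3 knockout arrays lay below all 4 wild-type arrays for 7 members and above them for 1, where 6.05% and 6.09% of all genes did so. Rescaling changed the small differences: after quantile normalization 4 members had an unadjusted p under 0.05, and 5 members had groups apart. The split of 28 lower and 10 higher was the same after quantile normalization and after centring each array on its median. As deposited, the upper quartile of all values ran from 8.345 to 8.361 in the wild-type arrays and from 8.328 to 8.333 in the knockout arrays, apart in the direction of the small receptor differences. After quantile normalization, which makes the quartiles equal, the differences were -0.13 for Gria1, -0.27 for Gria3, -0.09 for Gria4 and -0.20 for Grm5, each smaller in size than as deposited. By class, 14 of 16 ionotropic glutamate receptor genes were lower, with a median of -0.10, 4 of 6 metabotropic ones, with a median of -0.09 (-0.05 and -0.13 when wild-type array 2 or 3 was left out), and 10 of 16 GABA receptor genes, with a median of -0.07.

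**Figure D1:**
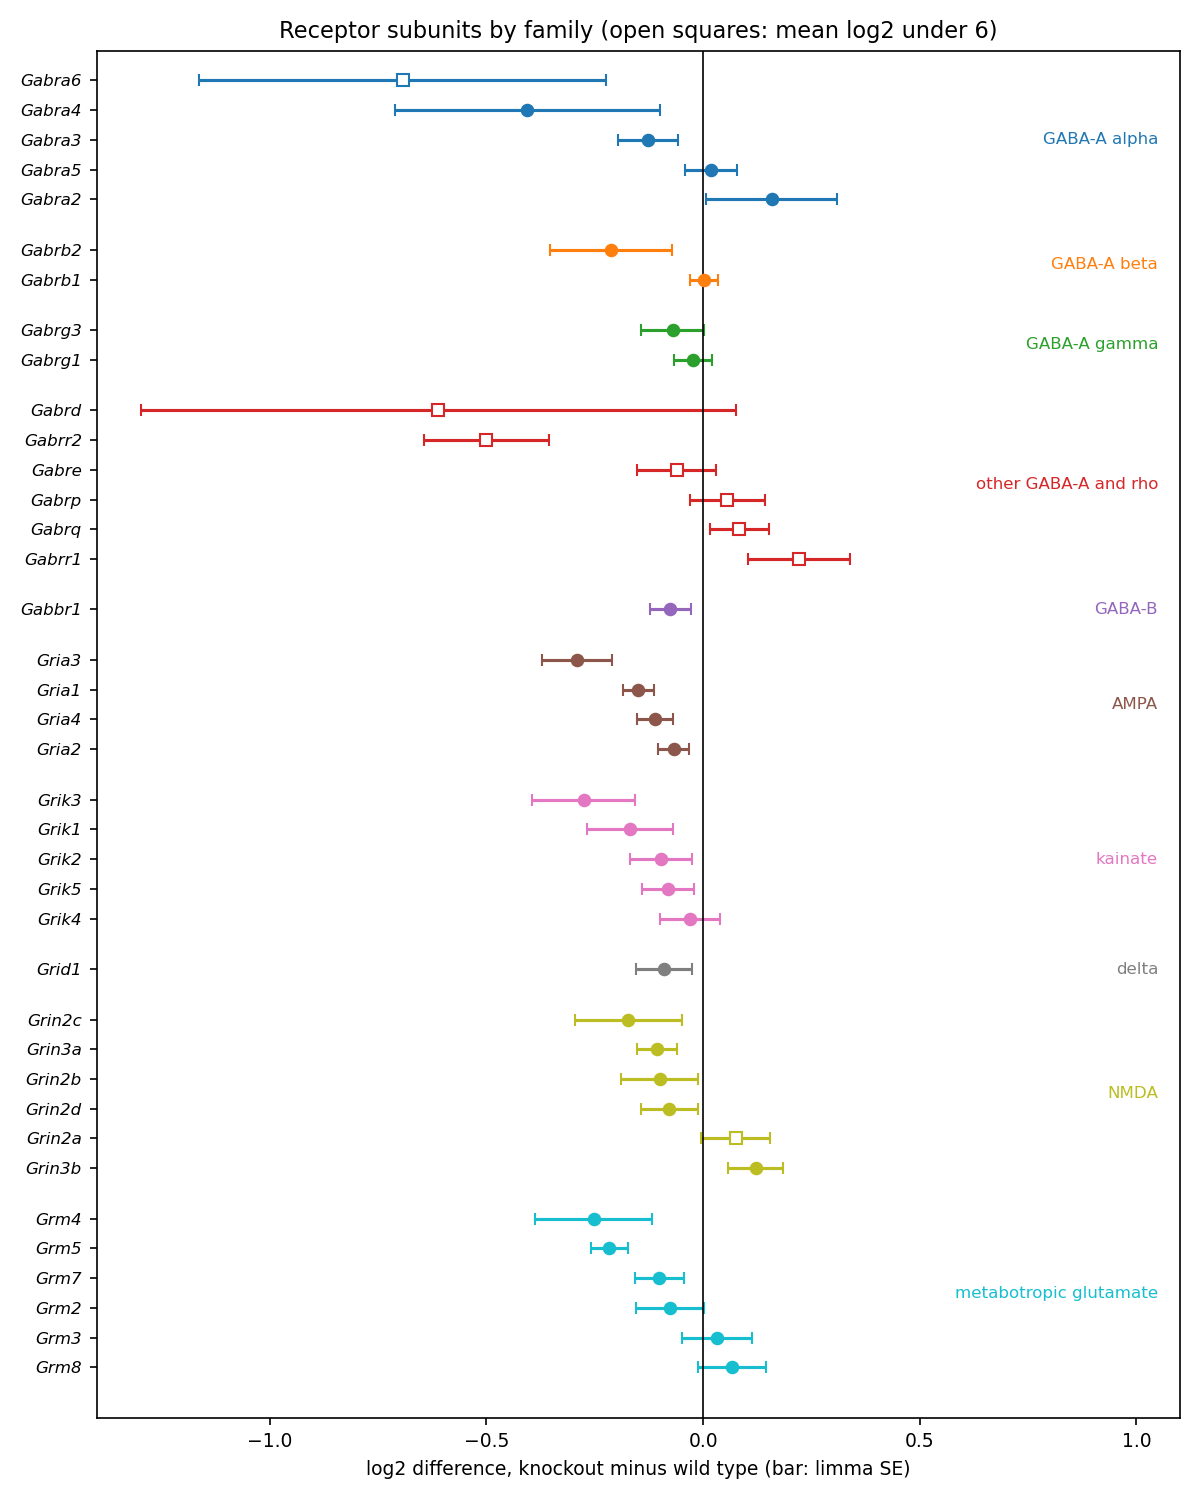
Log2 difference, knockout minus wild type, of the 38 receptor genes grouped by family, with limma's SE as bars and open squares for genes with a mean under 6. All 4 AMPA and all 5 kainate genes lie left of 0, and the widest bars belong to Gabrd, Gabra6 and Gabra4.

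The 4 AMPA receptor genes, Gria1 to Gria4, were all lower in the knockout. Their subunits form the channels that carry most fast excitation, and the median of the differences was -0.13. In each of them the 3 knockout arrays lay below the 4 wild-type arrays, though for Gria2 by a margin too small to weigh.
Gria1, a subunit moved into synapses during plasticity, read 11.03, 11.07, 11.04 and 11.03 in the wild-type arrays and 10.85, 10.96 and 10.87 in the knockout arrays. The wild-type arrays lay close together, and the highest knockout array, number 2, was still below them. The means were 11.04 ± 0.021 (SD, n = 4) and 10.89 ± 0.057 (SD, n = 3), a difference of -0.15 ± 0.036 (SE) or 1.11-fold, which did not pass (limma, adjusted p = 0.267).
Gria3, on the X chromosome, had the widest gap of the family. It read 9.95, 10.07, 10.07 and 9.82 in wild type and 9.72, 9.53 and 9.81 in the knockout. Wild-type array 4 and knockout array 3 almost met, while knockout array 2 was the lowest. The difference was -0.29 ± 0.081 (SE) or 1.22-fold (limma, adjusted p = 0.277). It was -0.21 without knockout array 2 and -0.31 with sex as a covariate.
Gria4, a subunit with fast kinetics, read 10.33, 10.39, 10.28 and 10.37 in wild type and 10.27, 10.24 and 10.19 in the knockout. The groups did not overlap, and the closest arrays, wild type 3 and knockout 1, differed in the second decimal. The difference was -0.11 ± 0.041 (SE) or 1.08-fold (limma, adjusted p = 0.368).
Gria2, the subunit whose edited form keeps AMPA receptors impermeable to calcium, read 11.67, 11.603, 11.61 and 11.71 in wild type and 11.565, 11.602 and 11.575 in the knockout. Wild-type array 2 and knockout array 2 differed in the third decimal, so that the groups touched. The difference of -0.07 ± 0.035 (SE) was the smallest of the 4 in size (limma, adjusted p = 0.478).

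**Figure D2:**
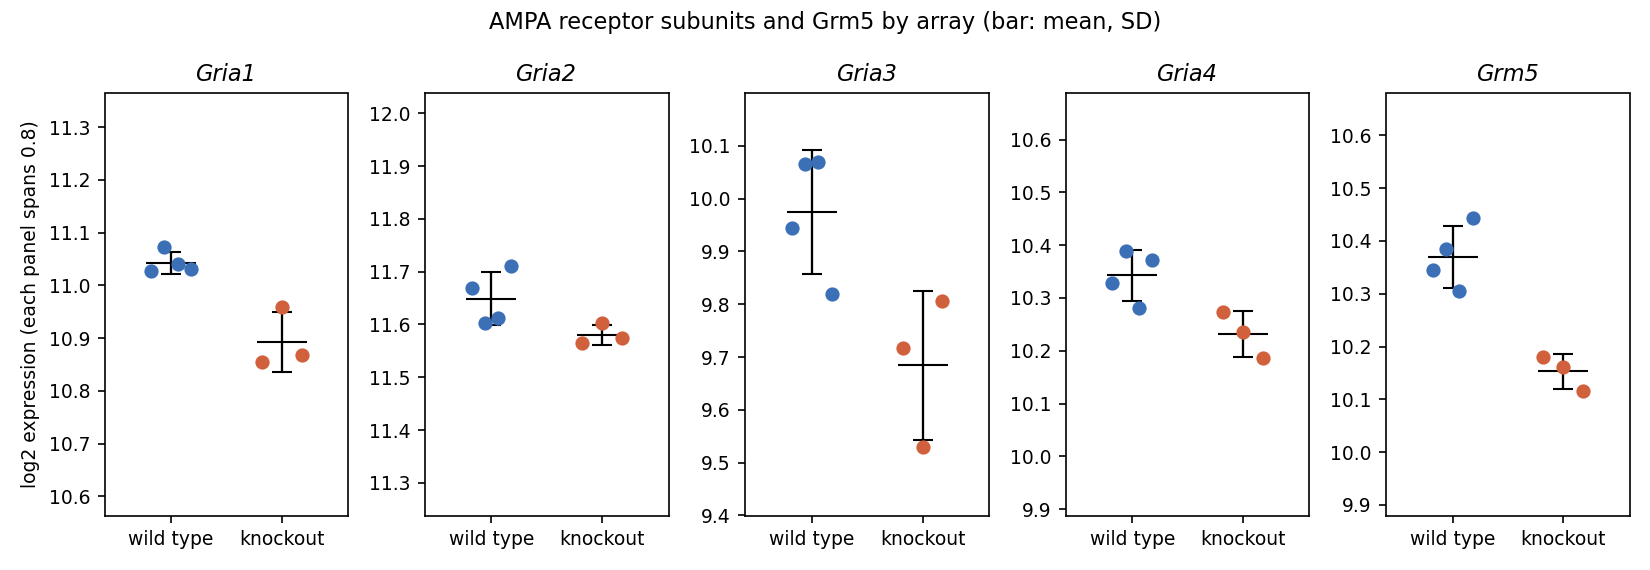
Log2 expression of the 4 AMPA receptor genes and of Grm5 in each array, with the mean and SD of each group as bars. Each vertical axis spans the same range of 0.8, and in every panel the 3 knockout points lie below the 4 wild-type points, with Gria2 at the edge.

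Further probe sets of the AMPA genes were read as a repeat of the measurement on the same RNA. Of 10 AMPA probe sets, 9 were lower. The other Gria1 probe set differed by -0.19, and that of Gria3 by -0.17. For Gria2 the other probe sets differed by -0.15 and -0.32, both more than the brightest one. Gria4 was less uniform, with a probe set at -0.05 and a dim one at 0.10. With the mean of all probe sets the family median was -0.17, and Gria4 was at -0.02. How far the groups lay apart also depended on the scaling. Gria1 was the AMPA gene whose groups stayed apart after quantile normalization, which left 1 of the 4 apart, and after centring each array on its median 2 stayed apart. All 4 remained lower under either. Within females (2 wild-type arrays and 1 knockout array) and within males (2 and 2), all 4 AMPA genes were lower. Because all knockout arrays lay below all wild-type arrays, this could not have come out otherwise.

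Grm5 had the smallest p of all members. It encodes a group I metabotropic receptor that couples glutamate to phospholipase C and sits at the edge of excitatory synapses. It read 10.34, 10.39, 10.30 and 10.44 in the wild-type arrays and 10.18, 10.16 and 10.12 in the knockout arrays. The gap between the groups was wider than the range of the knockout group. Means were 10.37 ± 0.059 (SD, n = 4) and 10.15 ± 0.033 (SD, n = 3), and the difference of -0.22 ± 0.043 (SE), or 1.16-fold, did not pass (limma, adjusted p = 0.203). Leaving out an array moved it between -0.24 and -0.19, and over all alternatives its adjusted p ran from 0.157 to 0.730. The other Grm5 probe set differed by -0.14. Within females the difference was -0.21, and within males it was -0.21.
Of the other metabotropic receptors, the group II genes Grm2 and Grm3, which inhibit transmitter release or act in astrocytes, differed by -0.08 and 0.03. Grm3 read 9.91, 9.96, 9.68 and 9.70 in wild type and 9.96, 9.77 and 9.81 in the knockout, so that the groups overlapped throughout. The group III presynaptic receptors Grm4, Grm7 and Grm8 differed by -0.25 ± 0.14 (SE), -0.10 ± 0.057 (SE) and 0.07 ± 0.078 (SE). Grm8 read 7.60, 7.45, 7.47 and 7.68 in wild type and 7.65, 7.69 and 7.50 in the knockout, again with overlap. Grm4 was highest in wild-type array 2, at 7.95, and without that array its difference was -0.14.

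The 5 kainate receptor genes were also all lower, with differences from -0.28 to -0.03 and a median of -0.10, but in none were the groups apart. Grik3 encodes a subunit with a low affinity for glutamate. It read 9.19, 9.15, 9.31 and 8.96 in wild type and 8.79, 8.68 and 9.16 in the knockout. Knockout array 3 lay among the wild-type arrays, and wild-type array 4 was low. The difference was -0.28 ± 0.12 (SE), with an unadjusted p of 0.0465 in the limma fit and no pass (limma, adjusted p = 0.419). It was -0.18 without knockout array 2 and -0.42 without knockout array 3. Its other probe set was dim and differed by 0.07. Grik1 and Grik2, which like Grik3 can form channels alone, differed by -0.17 and -0.10. Leaving out knockout array 2 put Grik1 at -0.07, and leaving out number 3 put it at -0.27. For Grik2, leaving out knockout array 1 gave -0.17 and leaving out number 3 gave -0.05. The second Grik2 probe set differed by less than 0.01 in size. Grik4 and Grik5, which need a partner subunit, differed by -0.03 and -0.08. Grid1, a delta receptor that binds cerebellins and organises synapses, differed by -0.09 ± 0.065 (SE).

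NMDA receptor genes split. Grin3a, whose subunit lowers calcium entry, read 9.17, 9.21, 9.13 and 9.10 in wild type and 9.09, 9.01 and 9.03 in the knockout. The groups did not overlap, although wild-type array 4 and knockout array 1 lay close. The difference was -0.11 ± 0.046 (SE), and its 2 other probe sets differed by -0.06 and -0.19 (limma, adjusted p = 0.419). Grin3b, the related subunit known mainly from motor neurons, was the single member with all knockout arrays above all wild-type arrays. It read 6.60, 6.61, 6.52 and 6.54 in wild type and 6.68, 6.64 and 6.73 in the knockout, a difference of 0.12 ± 0.063 (SE) (limma, adjusted p = 0.481). Grin3b had a single probe set, so no second reading was at hand.
The glutamate-binding subunits Grin2b, Grin2c and Grin2d differed by -0.10, -0.17 and -0.08. Wild-type array 2 was the highest for Grin2b (9.59) and Grin2c (7.85), and without it the differences were -0.02 and -0.06. The dimmer probe set of Grin2d went the other way, at 0.20, and the mean of both was 0.06. Grin2a read 3.68, 3.82, 3.51 and 3.65 in wild type and 3.69, 3.72 and 3.82 in the knockout. Its mean was under 6, and the files give no detection call.

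On the GABA side, several subunits had differences smaller than their standard errors. Gabrb1, a beta subunit, differed by 0.0029 ± 0.032 (SE), with a 95% interval from -0.07 to 0.08. Gabrg1 and Gabrg3, gamma subunits, differed by -0.02 ± 0.044 (SE) and -0.07 ± 0.072 (SE). Another Gabrg3 probe set, with a mean of 6.11 against 6.39, differed by -0.30, with all knockout arrays below all wild-type arrays. It did not pass (limma, adjusted p = 0.332 over all probe sets). The 2 further ones, with means under 6, were higher. Gabra5, an extrasynaptic alpha subunit, differed by 0.02 ± 0.060 (SE).
Gabra2 and Gabra3 encode further alpha subunits. Gabra2 read 9.51, 9.43, 8.81 and 9.05 in wild type and 9.33, 9.32 and 9.42 in the knockout. The knockout arrays lay inside the wild-type range, and the difference was 0.16 ± 0.15 (SE). The 2 brighter Gabra2 probe sets beside it differed by 0.14 and 0.12. It was 0.26 without wild-type array 1 and 0.03 without wild-type array 3. Gabra3 differed by -0.13 ± 0.069 (SE), with overlap. Gabbr1, the ligand-binding subunit of the GABA-B receptor, differed by -0.08 ± 0.048 (SE). Its 4 probe sets differed in sign, from -0.13 to 0.12.

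A further group of GABA-A subunits spread widely among the wild-type arrays. Gabra4, Gabrd and Gabrb2 are known from extrasynaptic channels of the thalamus and forebrain, and were singled out after their values were seen. Gabra4 read 8.98, 10.31, 9.02 and 9.51 in wild type and 8.92, 8.78 and 9.44 in the knockout. Gabrd read 4.61, 7.69, 5.05 and 6.64 in wild type and 5.04, 4.94 and 6.17 in the knockout. In each, wild-type array 2 was the highest, wild-type array 4 the next and knockout array 3 the third. Gabrb2 had the same order at the top, with 11.59, 11.33 and 11.24 in these arrays and 11.03 or less in the others. Group differences were -0.41 ± 0.31 (SE) for Gabra4, -0.61 ± 0.69 (SE) for Gabrd and -0.21 ± 0.14 (SE) for Gabrb2, and without wild-type array 2 they were -0.12, -0.05 and -0.10. The second Gabra4 probe set differed by -0.28, and the 4 other Gabrb2 probe sets by -0.21 to -0.11. The other Gabrd probe set, with a mean under 6, differed by 0.04 and read 4.31 to 4.54 over all arrays, without the high values of wild-type arrays 2 and 4 and knockout array 3. Gabra6, the alpha subunit of cerebellar granule cells, read 3.93, 5.91, 3.81 and 3.78 in wild type and 3.77, 3.78 and 3.45 in the knockout. Wild-type array 2 stood far above the other 6 arrays. Its groups did not overlap, its difference was -0.69 ± 0.47 (SE), and without that array it was -0.18.

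**Figure D3:**
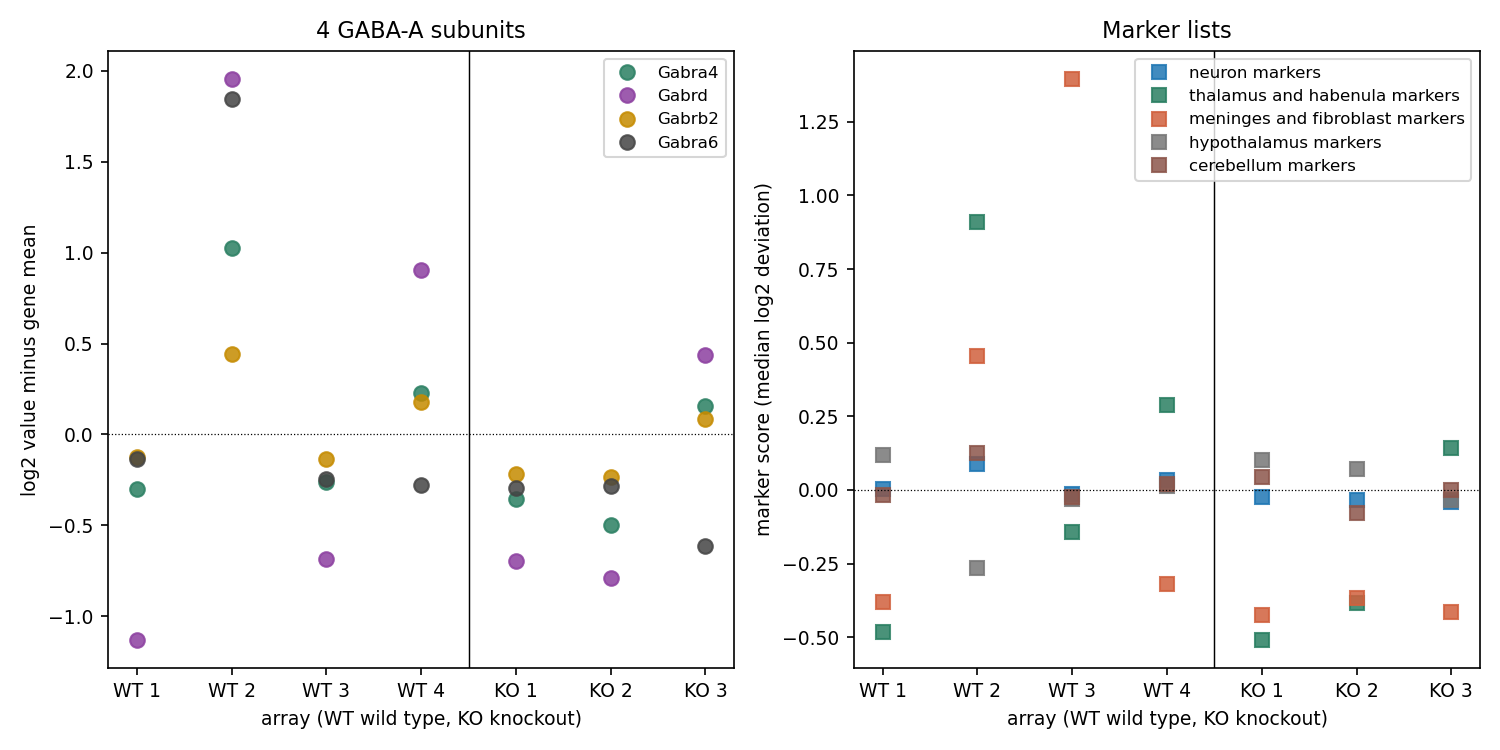
Left, log2 values of Gabra4, Gabrd, Gabrb2 and Gabra6 in each array, as deviations from the gene's mean over 7 arrays. Right, marker scores of 5 lists, the median log2 deviation of a list's genes in an array; wild-type array 2 is highest for all 4 subunits and for thalamic markers (0.91).

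The tissue labels were set beside these values. Hypothalamic markers were present, with Hcrt between 12.02 and 12.78 and Oxt between 12.24 and 12.80, and 3 of 19 measured markers had means under 6. Of the 19, 15 were higher in the knockout, with a median of 0.12. Their score, the median deviation of a list's genes from their means over the arrays, was 0.12, -0.26, -0.03 and 0.01 in wild type and 0.10, 0.07 and -0.04 in the knockout, lowest in wild-type array 2. Of 19 thalamus and habenula markers, 17 were lower in the knockout, with a median of -0.38. The thalamic score was -0.48, 0.91, -0.14 and 0.29 in wild type and -0.51, -0.38 and 0.14 in the knockout. The arrays with positive scores were wild type 2, wild type 4 and knockout 3, those in which Gabra4, Gabrd and Gabrb2 were highest. Prkcd, a kinase of thalamic relay neurons named after its values were seen, read 10.29, 9.25 and 8.58 in these 3 arrays and 7.53 or less in the other 4. A list of 12 cerebellar markers, chosen after Gabra6 was seen, had scores from -0.02 to 0.13 in wild type and -0.08 to 0.04 in the knockout. Within it the granule cell gene Cbln3 read 5.36 in wild-type array 2 and 3.99 to 4.26 elsewhere, and the Purkinje cell gene Pcp2 read 6.24 against 5.05 to 5.25. Both were picked for these values. Wild-type array 2 was the highest array for 6 of the 12 markers and the lowest for 3, Barhl1, Cbln1 and Gng13. The part of neighbouring tissue in the differences of these subunits was not tested.

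Neuron markers moved in the same direction as the AMPA genes. Of 20 markers, 16 were lower, with a median of -0.06 and 6 with groups apart, all lower, where 6.05% of all genes lay apart lower and 6.09% higher. The neuron score ran from -0.0154 to 0.0874 in wild type and from -0.0394 to -0.0248 in the knockout, so that all 3 knockout arrays lay below all 4 wild-type arrays. Rbfox3 and Meg3, both enriched in neurons and named after their values were seen, differed by -0.18 and -0.14. The part of overall neuronal RNA in the receptor differences was not tested. Astrocyte markers had a median of 0.05, with 7 of 11 higher. Microglial markers had a median of -0.09, with 7 of 11 lower, and endothelial and mural markers -0.16, with 9 of 12 lower. The endothelial and mural score lay apart as the neuron score did. It ran from 0.0085 to 0.1077 in wild type and from -0.1342 to -0.0463 in the knockout. No other of the 16 marker and pathway scores lay apart. Scores and marker differences were read as deposited and, unlike the AMPA genes, not after rescaling. Meningeal scores ran from -0.38 to 1.40 in wild type, highest in array 3, and from -0.42 to -0.37 in the knockout, with 12 of 14 markers lower. Oligodendrocyte markers had a median of 0.0067, pituitary markers 0.06 and striatal, cortical and amygdalar markers -0.02. Without wild-type arrays 2 and 3 together, the median of the 4 AMPA genes was -0.13, and 29 of 38 members were lower. The AMPA groups were already apart over all arrays, so leaving arrays out could not change their sign or overlap. By Xist and Y transcripts, both wild-type arrays left were female, against 1 female and 2 male knockout arrays. Sex and genotype were thus mixed in that comparison.

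**Figure D4:**
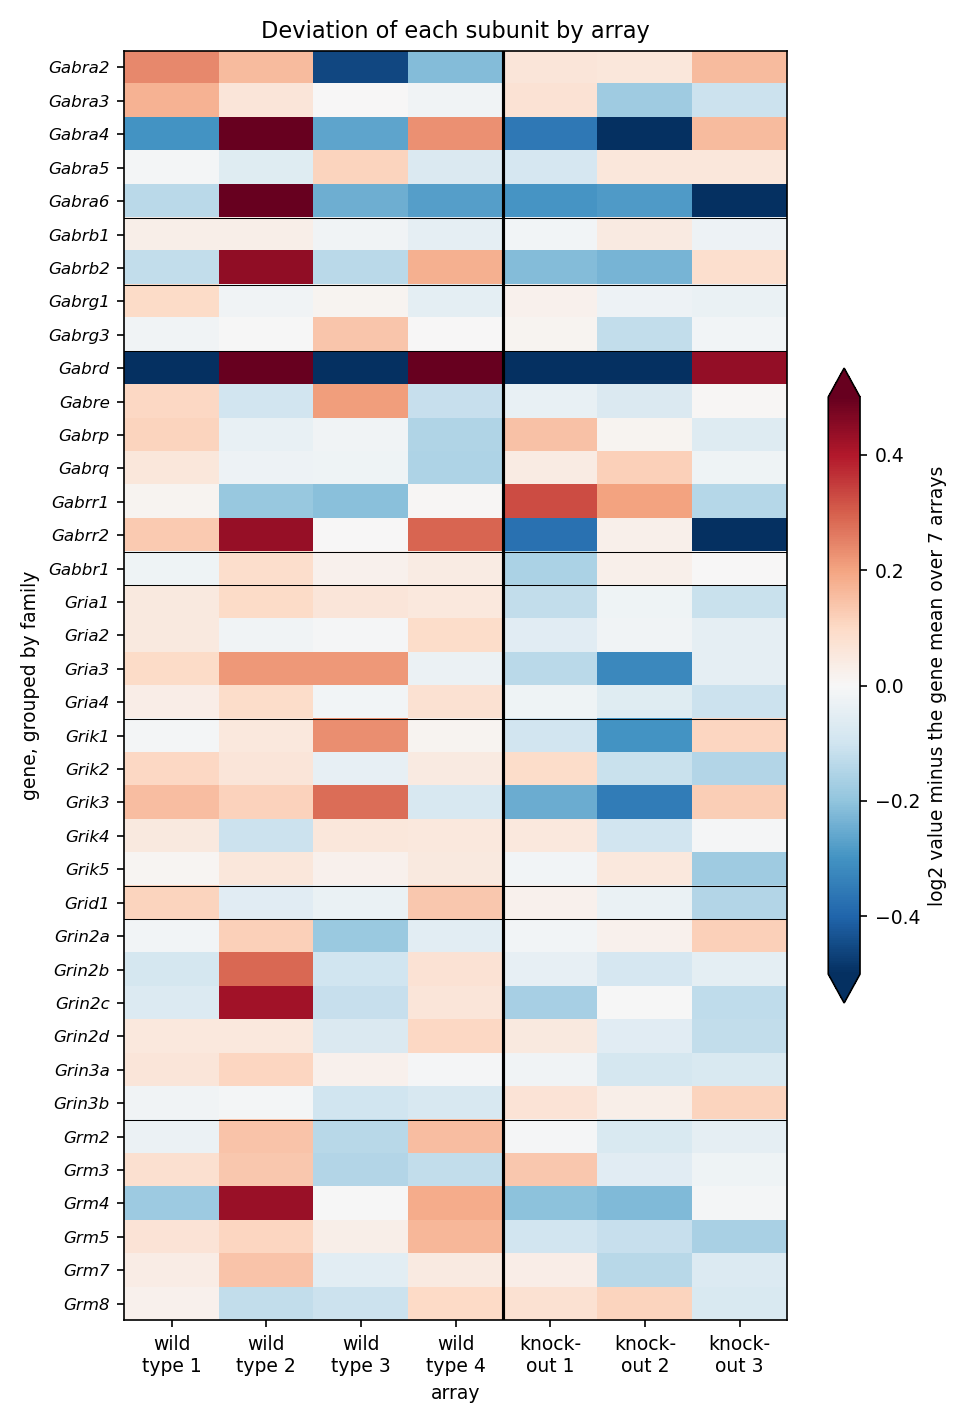
Deviation of each of the 38 receptor genes from its mean over the 7 arrays (columns), in log2 units, with the colour scale ending at 0.5 in either direction. Wild-type array 2 was the highest array for 16 of the 38 genes, and in the 4 AMPA rows all 3 knockout columns are below 0.

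Across the arrays, the receptor genes also showed which samples stood apart. Wild-type array 2 was the highest array for 16 of the 38 members (42.1%) and for 13.5% of all genes. Knockout arrays were the highest for 2, 3 and 1 members. The lowest array was knockout 2 for 10 members and knockout 3 for 8. The score over all members was 0.04, 0.09, -0.02 and 0.04 in wild type and -0.02, -0.06 and -0.04 in the knockout. Wild-type array 3 thus lay just below knockout array 1 for the class as a whole by the third decimal, at -0.018 against -0.015, and the groups overlapped.

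The remaining GABA-A and rho genes had means under 6, and the files give no detection call for them. Gabrr2, a rho subunit known from retina, read 5.27, 5.58, 5.14 and 5.43 in wild type and 4.77, 5.16 and 4.63 in the knockout, with overlap between wild-type array 3 and knockout array 2. Its difference of -0.50 ± 0.14 (SE) had an unadjusted p of 0.00749 and did not pass (limma, adjusted p = 0.289). Its neighbour Gabrr1 went the other way. It read 4.20, 4, 3.98 and 4.20 in wild type and 4.52, 4.39 and 4.05 in the knockout, a difference of 0.22 ± 0.12 (SE).
Gabrq, the theta subunit found in hypothalamic and brainstem neurons, read 3.47, 3.39, 3.39 and 3.26 in wild type and 3.45, 3.53 and 3.39 in the knockout. Gabrp, the pi subunit of epithelia, read 5.24, 5.10, 5.11 and 4.98 in wild type and 5.28, 5.15 and 5.07 in the knockout. Both groups overlapped for each gene, with differences of 0.08 and 0.06. Gabre, the epsilon subunit, differed by -0.06 ± 0.092 (SE). In all, 8 members had a mean under 6: these, Gabrd, Gabra6 and Grin2a. Without them, 24 of 30 members were lower.

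Several GABA-A genes lie next to each other in the genome. By the RefSeq gene table of GRCm38.p6, Gabra6 and Gabrb2 are neighbours on chromosome 11, Gabrr2 and Gabrr1 on 4, and Gabrg3 and Gabra5 on 7. On chromosome 5, Gabrg1 lies next to Gabra2, and Gabra4 next to Gabrb1, with 1 protein-coding gene between the pairs. On X, Gabra3 lies next to Gabrq, and Gabre is 1 gene away. Neighbours differed in sign in several places. Gabra4 and Gabrb1 start on opposite strands, with their nearest start sites 387 bases apart, and their differences were -0.41 and 0.0029. Gabrr2 and Gabrr1 had opposite signs, as did Gabra3 and Gabrq, Gabrg1 and Gabra2, and Gabrg3 and Gabra5. Gabra6 and Gabrb2 were both lower, and both were highest in wild-type array 2.

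**Figure D5:**
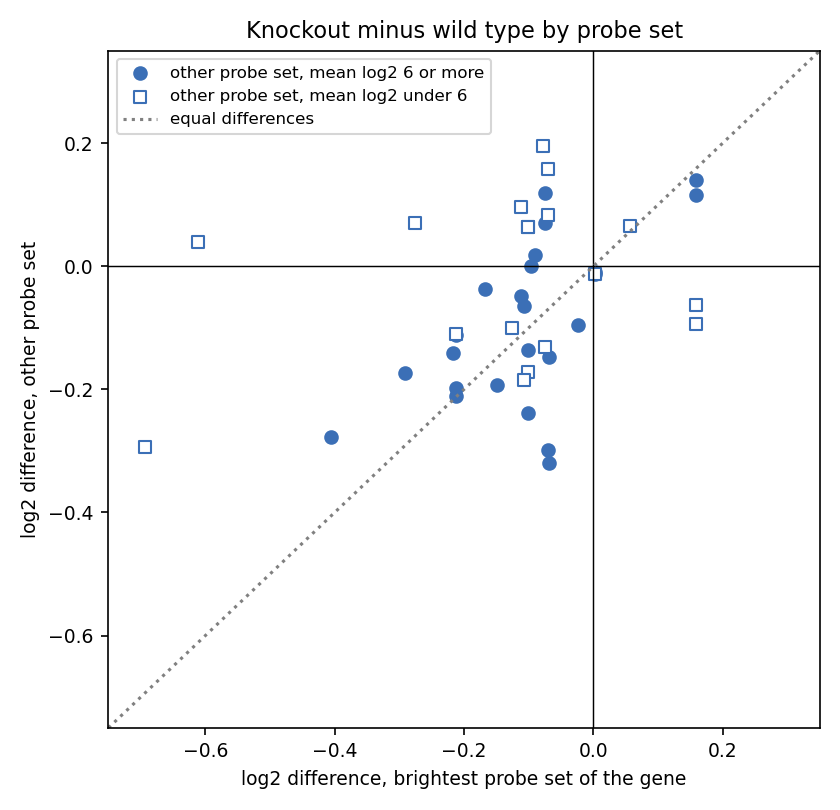
Log2 difference of each other probe set of a receptor gene against that of the gene's brightest probe set, with open squares for probe sets with a mean under 6. Most filled points (19 of 24) lie in the quadrants of equal sign, and 7 of the 18 open squares do.

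Over all members, 24 had more than 1 probe set, and these gave 42 other probe sets. The sign was that of the brightest probe set for 19 of 24 other probe sets with a mean of 6 or more and for 7 of 18 dimmer ones. Of the 80 probe sets, 56 were lower and 24 higher. Since all probe sets of a gene were read from the same RNA, this bears on the probes and not on the animals.

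Other genes of the 2 transmitter systems were read from 5 lists. The genes named below had the smallest unadjusted p of their list and do not stand for its other genes. None of the 74 measured genes passed over all genes (limma, lowest adjusted p = 0.267). Of the 74, 46 were lower and 28 higher, with a median of -0.03, and 14 lower and 2 higher genes had an unadjusted p under 0.05, where 6.12% of all genes did so lower and 5.6% higher. All 8 genes of GABA synthesis, transport and breakdown were lower, with a median of -0.07. Gad1 and Gad2, which make GABA, differed by -0.07 and -0.09. The GABA transporters Slc6a12 and Slc6a13 differed by -0.36 and -0.65, and both are also known from meninges. Slc6a12 had a mean of 4.12, under 6. Slc6a13 read 6.01, 7.04, 7.74 and 6.13 in wild type and 6.24, 6.28 and 5.71 in the knockout, high in wild-type arrays 2 and 3.
Among 10 genes of glutamate synthesis and transport, 6 were lower, with a median of -0.01. The neuronal transporter genes Slc1a1 and Slc38a1 differed by -0.12 and -0.08, the astrocyte transporter gene Slc1a3 by 0.07, and Slc1a6, a transporter gene of Purkinje cells, by 0.09.
Of 35 scaffold and partner genes of excitatory synapses, 21 were lower, with a median of -0.02. In 6 the groups lay apart, all lower, where 6.05% of all genes lay apart lower and 6.09% higher. Cacng2, which encodes the AMPA receptor partner stargazin, read 9.96, 9.99, 9.98 and 10.05 in wild type and 9.90, 9.83 and 9.80 in the knockout. All knockout arrays lay below the wild-type arrays, and the difference was -0.16 ± 0.042 (SE) (limma, adjusted p = 0.270). Nsf, a membrane fusion ATPase that also binds the Gria2 protein, differed by -0.12, and the scaffold genes Dlgap1 and Dlgap4 by -0.24 and -0.24. Of 16 partners at inhibitory synapses, 8 were lower and 8 higher. Slc12a5, the chloride exporter that makes GABA inhibitory, differed by -0.11 ± 0.027 (SE), the adhesion gene Nlgn2 by -0.12, the trafficking gene Trak1 by -0.10 and Gabarapl1 by 0.08. The 5 glycine receptor genes had a median of -0.0018, with the alpha subunits Glra2, Glra3 and Glra4 at -0.09, -0.07 and 0.13. Glra4 had a mean of 3.64, under 6.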

How the data were processed

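RNA of 7 hypothalamus samples was measured on 1 Affymetrix array each. The authors deposited log2 expression values. The submitters' processing notes list RMA, affy and R 2.10.0, with no settings. Such values give no detection call, and the number of arrays limits the precision. Array medians lay between 6.20 and 6.24, and upper quartiles were higher in every wild-type array than in any knockout array.

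From these values, 34945 probe sets with a single symbol were reduced to 18193 genes by the highest mean over all arrays. Knockout and wild type were compared with limma 3.58.1 in R 4.3.3 (lmFit and eBayes with a trend, two-sided, Benjamini-Hochberg over all genes, threshold 0.05). On simulated data with 18193 genes, the knockout comparison found 73% of genes shifted by 0.5 log2 units and 94% of those shifted by 1. With them, 11 genes that were not shifted also passed. These shares depend on how many genes were shifted together and on noise drawn independently for each gene. They are therefore not the chance of finding a single member in these data.

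The receptor genes and lists were chosen with earlier results of these data known. Values in every array are given for members whose groups do not overlap and for the 8 higher and 8 lower members with the smallest p, and for genes that the text says were singled out. Up to 4 genes are named per pathway list, those with the smallest unadjusted p. Arrays of the same replicate number deviated together from their group means (correlations 0.318, 0.101 and 0.143 over genes), so numbers 1 to 3 were treated as pairs in an alternative. Correlations between arrays of unlike number were not computed, so these values are not shown to be particular to a shared number. The arrays of a pair also matched in sex. Sex, used as a covariate, came from Xist and Y transcripts. Other alternatives covered the dim filter, variance model, array weights, scaling, probe set choice and left-out arrays. Protein sequences were not used here.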

Additional observations from a re-analysis of the deposited data

Results flagged for a closer look

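In 3 of the 38 receptor genes, 1 wild-type array stood apart from the other 3 by more than Dixon's 95% limit for the gap over the group's range, which chance passes in about 1 of 20 groups. Gabra6 read 5.91 in wild-type array 2, far above the others. Gabrg3 read 6.53 in wild-type array 3, the highest of its group. Grik4 read 7.22 in wild-type array 2, the lowest of its group. None of the 16 marker and pathway scores passed the same limit.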

How the results depend on the processing

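None of the 38 members passed the adjusted threshold in any of the 17 alternatives, all 4 AMPA genes were lower in each, and 29 members kept their sign wherever they were tested. For the AMPA genes the sign was fixed where arrays were left out, because their groups were apart over all arrays. Genes past the threshold, 2 in all, numbered 7 with array weights, 1 with averaged probe sets and 2 to 21 with an array left out (21 without wild-type array 1, 8 without knockout array 1, 6 without wild-type array 2). Members with an unadjusted p under 0.05, 7 in all, numbered 4 after quantile normalization and 4 to 9 with an array left out. The replicate block, which pairs arrays 1 to 3 and so leaves out wild-type array 4, gave 10 such members. It gave 31 lower members, as leaving out that array alone did, and no changed call over adjusted p. Members whose groups lay apart, 8 in all, numbered 5 after quantile normalization, 13 without wild-type arrays 2 and 3 and 8 to 14 with an array left out (14 without knockout array 3). Leaving arrays out can only keep or raise this count, and the share over all genes in such smaller groups is not given here. AMPA genes apart numbered 1 after quantile normalization and 2 after centring. Pathway genes with an unadjusted p under 0.05, 16 in all, numbered 9 after quantile normalization, 10 without wild-type arrays 2 and 3, 10 when a gene's probe sets were averaged, and 7 to 19 with an array left out.

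The median difference of GABA receptors was -0.035 without wild-type arrays 2 and 3 and -0.083 to -0.029 with an array left out. That of metabotropic receptors was -0.13 to -0.053 with an array left out. Averaging a gene's probe sets put the median of AMPA genes at -0.17. That of pathway genes was -0.049 without dim genes, -0.015 after quantile normalization, -0.012 with averaged probe sets and -0.046 to -0.025 with an array left out.

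Signs turned for 9 members with small differences, and the cause was not tested. With the replicate block, Gabra5 was at -0.0032, Gabrb1 at -0.012 and Grm3 at -0.0046. The block leaves out wild-type array 4, so these are also the differences without that array and are not particular to the pairing. Gabrb1 was also at -0.0021 after quantile normalization, -0.0084 with averaged probe sets and -0.00011 with sex as a covariate. Gabrg1 was at 0.0017 after quantile normalization, Grin2d at 0.059 with averaged probe sets and Grm8 at -0.022 without wild-type arrays 2 and 3. With an array left out, Gabra5 ranged from -0.0056 to 0.066, Gabrb1 from -0.018 to 0.017, Gabrg1 from -0.044 to 0.0055, Gabre from -0.11 to 0.00024, Gabrp from -0.0018 to 0.10, Grik4 from -0.070 to 0.010 and Grm3 from -0.025 to 0.082.

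Most members differed by less than the smallest simulated shift, 0.5 log2 units, so recovery at their sizes is not known. Dim probe sets give no bound on a level, because the files hold no background measure.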
